A study of Neurospora crassa with 12 samples.

Results

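Transcript levels of 10 genes of cellulose breakdown and its control were followed in Neurospora crassa, a filamentous fungus that grows on plant cell walls. The genes were taken by name and not by a threshold on a measured value, with earlier results of these data known. They are the cellulase genes cbh-1 (NCU07340), gh6-2 (NCU09680) and gh5-1 (NCU00762), the beta-glucosidase gene gh3-4 (NCU04952), the transporter genes cdt-1 (NCU00801) and cdt-2 (NCU08114), and the regulator genes clr-1 (NCU07705), clr-2 (NCU08042), xlr-1 (NCU06971) and cre-1 (NCU08807). They make up 10 of the 9730 genes in the count tables, and all 10 were among the 8496 genes with enough reads to be tested.

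Polyadenylated RNA was sequenced from mycelium of 3 strains, each with 4 libraries. Δdim-5 is strain N3944, given the genotype mat x; Δdim-5::bar+, and lacks the gene for the histone H3K9 methyltransferase, so that H3K9me3 is wholly lost per the study's description. ΔLGIIK9het25 is strain NKL2, with the genotype mat A; ΔLGIIK9het25::hph, in which a marker takes the place of a large block of constitutive heterochromatin. WT is strain N150, mat A. All 3 were grown for 16 h at 32 °C with shaking in Vogel's medium with 1.5% sucrose, and each genotype is represented by a single strain, so a genotype and any other difference of its strain cannot be told apart. The comparisons address what loss of the mark, or of a single marked region, does to transcript levels.

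As background, N. crassa digests cellulose outside the cell. Cellobiohydrolases and endoglucanases cut the polymer, beta-glucosidases split the short cellodextrins, and the transporters CDT-1 and CDT-2 carry cellodextrins into the hypha. The transcription factors CLR-1 and CLR-2 switch the genes on when cellobiose is sensed, XLR-1 does so for hemicellulose, and CRE-1 represses such genes while sucrose or glucose is at hand, as it was in these cultures.

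Levels are in CPM, the edgeR unit that sets the counts of a gene against the gene total of the library, here after TMM scaling. They are not divided by gene length, so they compare libraries and not genes. A gene was called when edgeR's quasi-likelihood test gave an adjusted p under 0.05 over all tested genes. Gene totals ran from 7164944 to 23925695 per library, and the 10 genes had between 5 and 8262 counts in a library. The targeted gene dim-5 averaged 0.0335 CPM in Δdim-5, with 3 counts over its 4 libraries, 7.21 CPM in ΔLGIIK9het25 and 7.29 CPM in WT. Conidiation markers were 5 genes of asexual spore formation, which hyphae can begin. They summed to 491 to 15502 CPM in Δdim-5 libraries, 164 to 1539 CPM in ΔLGIIK9het25 and 353 to 2452 CPM in WT. Replicate 2 of Δdim-5 and replicate 3 of WT held the highest sums of their strains, mostly through the marker eas, at 14360 and 2100 CPM. The markers con-6 and fl were instead highest in WT replicate 1. All 5 markers had a positive log2 fold change for Δdim-5 over WT, with a median of 1.14, beside 0.01 over all tested genes. For ΔLGIIK9het25 over WT 4 were positive and 1 negative. None of the 5 markers was called in any comparison and none was at 0 in any strain. Reads outside genes made up 3.62% to 7.29% of Δdim-5 libraries, 5.17% to 31.9% of ΔLGIIK9het25 libraries and 8.85% to 36.8% of WT libraries.

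None of the 10 genes was called in either mutant against WT, beside 16.5% of all tested genes in Δdim-5 and 4.32% in ΔLGIIK9het25. With only 10 genes, 0 calls do not set them apart from these shares. At an unadjusted p under 0.05 there were 2 of the 10 in Δdim-5, where 30.1% of all tested genes passed, and 3 of the 10 in ΔLGIIK9het25, where 15.8% passed. DESeq2 called 1 gene in each, xlr-1 in Δdim-5, beside 1821 genes in all, and cdt-1 in ΔLGIIK9het25, beside 617. With limma-voom 0 of the 10 were called in both, beside 1334 genes in all in Δdim-5 and 306 in ΔLGIIK9het25. Between the mutants, where 16.7% of all tested genes were called, 1 of the 10 was called, the transporter gene cdt-2, which was higher in Δdim-5. It was also the only gene of the 10 with an unadjusted p under 0.05 there, beside 30.2% of all tested genes. The median log2 fold change of the 10 genes was -0.04 for Δdim-5 over WT and -0.24 for ΔLGIIK9het25 over WT, beside 0.01 and -0.01 over all tested genes. Both comparisons use the same WT libraries.

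**Figure D1:**
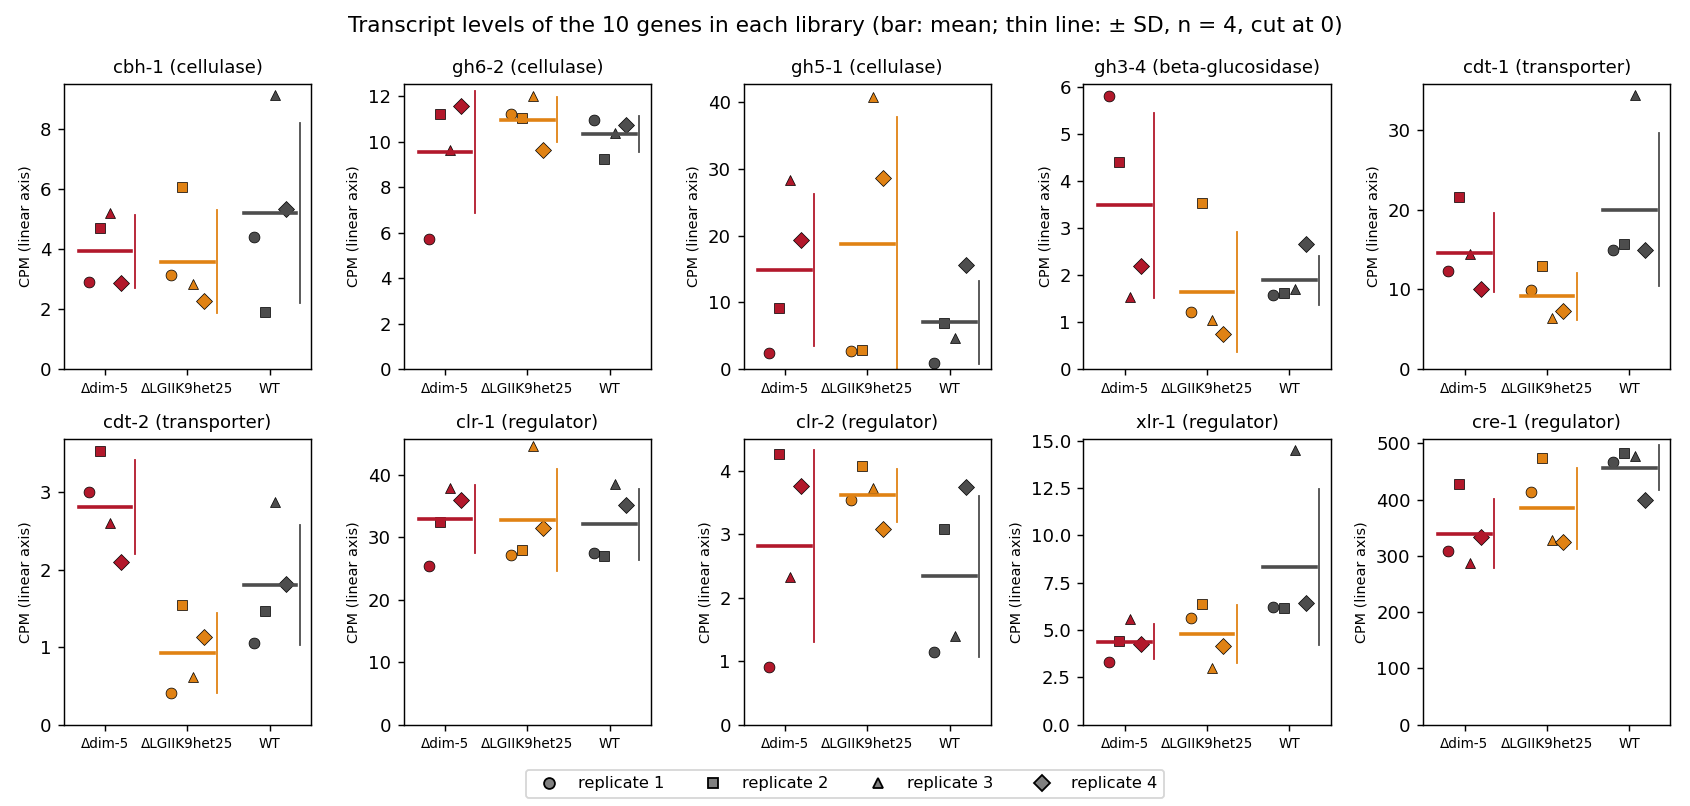
Level of each gene in CPM (linear axes, each gene on its own scale) in every library of Δdim-5, ΔLGIIK9het25 and WT, with the mean as a thick bar, the SD as a thin line (n = 4, cut at 0) and the replicate number as the symbol. The strains overlap in most panels; cdt-2 in Δdim-5 lies above every ΔLGIIK9het25 library, and cdt-1 in ΔLGIIK9het25 and xlr-1 in Δdim-5 lie below every WT library.

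Among the enzymes, cbh-1, which encodes the main cellobiohydrolase, was at a few CPM in every strain. It had 2.9, 4.70, 5.19 and 2.87 CPM in Δdim-5 replicates 1 to 4, 3.14, 6.07, 2.82 and 2.26 CPM in ΔLGIIK9het25, and 4.39, 1.90, 9.13 and 5.32 CPM in WT. The lowest and the highest of the 12 values were both WT libraries, so each mutant lay inside the WT range. The log2 fold change was -0.42 for Δdim-5 over WT (SE 0.44, edgeR adjusted p = 0.563) and -0.57 for ΔLGIIK9het25 over WT (SE 0.445, adjusted p = 0.625). Without WT replicate 3 the Δdim-5 value was 0.0062, so its sign rests on that library.

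The second cellobiohydrolase gene, gh6-2, was the most even of the enzyme genes. Its levels were 5.7, 11.2, 9.64 and 11.6 CPM in Δdim-5, 11.2, 11.0, 12 and 9.63 CPM in ΔLGIIK9het25, and 11.0, 9.22, 10.4 and 10.8 CPM in WT. All but the first Δdim-5 library lay between 9.22 and 12 CPM. The coefficient of variation was 28.2% in Δdim-5, 8.98% in ΔLGIIK9het25 and 7.51% in WT. The log2 fold change over WT was -0.11 in Δdim-5 (95% interval -0.59 to 0.36, edgeR adjusted p = 0.776) and 0.08 in ΔLGIIK9het25 (-0.39 to 0.56, adjusted p = 0.916).

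The endoglucanase gene gh5-1 varied more between libraries of a strain than between strains. It had 2.4, 9.18, 28.4 and 19.4 CPM in Δdim-5, 2.74, 2.87, 40.8 and 28.6 CPM in ΔLGIIK9het25, and 0.877, 6.88, 4.71 and 15.6 CPM in WT. In ΔLGIIK9het25 replicates 1 and 2 were low and replicates 3 and 4 high, and replicate 1 was the lowest library in each strain. The highest library was 11.8 times the lowest in Δdim-5, 14.9 times in ΔLGIIK9het25 and 17.8 times in WT. Counting error is far smaller than these gaps: ΔLGIIK9het25 replicate 3 had 666 counts (40.8 CPM, exact 95% interval 37.7 to 44.0) and replicate 1 had 34 (2.74 CPM, 1.90 to 3.83). The coefficient of variation of gh5-1 lay at the 96.1, 98.7 and 95.9 percentile, in Δdim-5, ΔLGIIK9het25 and WT, among genes averaging 1 to 50 CPM over the 12 libraries. With this spread the means of 14.8 ± 11.4 CPM in Δdim-5, 18.7 ± 19.1 CPM in ΔLGIIK9het25 and 7.01 ± 6.23 CPM in WT (SD, n = 4) could not be told apart. The log2 fold change over WT was 1.11 in Δdim-5 (95% interval -0.94 to 3.16, edgeR adjusted p = 0.471) and 1.45 in ΔLGIIK9het25 (-0.62 to 3.51, adjusted p = 0.539).

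The beta-glucosidase gene gh3-4 was low in all libraries, with 10 to 60 counts each. It had 5.8, 4.41, 1.54 and 2.18 CPM in Δdim-5, 1.21, 3.53, 1.04 and 0.752 CPM in ΔLGIIK9het25, and 1.58, 1.61, 1.69 and 2.66 CPM in WT. Replicates 1 and 2 of Δdim-5 stood above every WT library and replicate 3 below them all, while 3 of the 4 ΔLGIIK9het25 libraries were under the WT range and replicate 2 above it. The log2 fold change was 0.87 for Δdim-5 over WT (SE 0.53, edgeR adjusted p = 0.299), -0.24 for ΔLGIIK9het25 over WT (SE 0.546, adjusted p = 0.899) and 1.11 for Δdim-5 over ΔLGIIK9het25 (SE 0.531, adjusted p = 0.18). Without ΔLGIIK9het25 replicate 2, the highest library of its strain, gh3-4 passed the threshold between the mutants (log2 fold change 1.77, edgeR adjusted p = 0.0304). Under the other 21 of 22 alternatives it did not. Without ΔLGIIK9het25 replicate 4, its difference from WT was 0.0017.

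The transporter gene cdt-2, whose product takes up cellodextrins, gave the only difference among the 10 genes that edgeR called. It had 3.0, 3.53, 2.60 and 2.10 CPM in Δdim-5, 0.403, 1.55, 0.612 and 1.13 CPM in ΔLGIIK9het25, and 1.05, 1.46, 2.87 and 1.81 CPM in WT. Every Δdim-5 library was above every ΔLGIIK9het25 library, as was the case for 10.5% of all tested genes, and WT overlapped both. In edgeR the log2 fold change was 1.62 for Δdim-5 over ΔLGIIK9het25 (SE 0.451, 95% interval 0.65 to 2.59, adjusted p = 0.0264). Over WT it was 0.62 for Δdim-5 (SE 0.433, adjusted p = 0.371) and -1.01 for ΔLGIIK9het25 (SE 0.461, adjusted p = 0.309), so neither mutant was called on its own.

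That call rests on few reads, 179 counts over the 4 Δdim-5 libraries, 44 over the 4 ΔLGIIK9het25 libraries and 76 over the 4 WT libraries. ΔLGIIK9het25 replicate 1 held 5 of them, which is 0.403 CPM with an exact 95% interval of 0.131 to 0.940. The call between the mutants was lost without ΔLGIIK9het25 replicate 1 (log2 fold change 1.37, adjusted p = 0.0722), replicate 3 (1.43, adjusted p = 0.0882) or replicate 4 (1.75, adjusted p = 0.0517), and without Δdim-5 replicate 2 (1.47, adjusted p = 0.0691). A filter at a mean of 5 CPM left cdt-2 untested. Over the other 22 alternatives its adjusted p ran from 0.00477 to 0.0882 and its direction held. Over the 12 libraries the tested genes whose log2 CPM followed cdt-2 most closely were ppm-3 (NCU07608), NCU09772 and NCU03449, with Pearson's r of 0.944, 0.935 and 0.932. These are the highest of 8495 values and are given as a description.

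The other cellodextrin transporter gene, cdt-1, was lower in ΔLGIIK9het25 than in WT in every library but missed the threshold. It had 12.3, 21.6, 14.5 and 10.1 CPM in Δdim-5, 9.91, 12.9, 6.37 and 7.30 CPM in ΔLGIIK9het25, and 15.0, 15.7, 34.5 and 15.0 CPM in WT. The highest ΔLGIIK9het25 library lay under the lowest WT library, as was the case for 5.16% of all tested genes, and Δdim-5 overlapped both strains. In edgeR the log2 fold change over WT was -1.15 in ΔLGIIK9het25 (SE 0.341, 95% interval -1.88 to -0.41, adjusted p = 0.0846) and -0.46 in Δdim-5 (SE 0.335, adjusted p = 0.387). DESeq2 called the ΔLGIIK9het25 difference (adjusted p = 0.0247). Without WT replicate 3, the library at 34.5 CPM, the values were -0.74 for ΔLGIIK9het25 (adjusted p = 0.231) and -0.06 for Δdim-5 (adjusted p = 0.923).

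**Figure D2:**
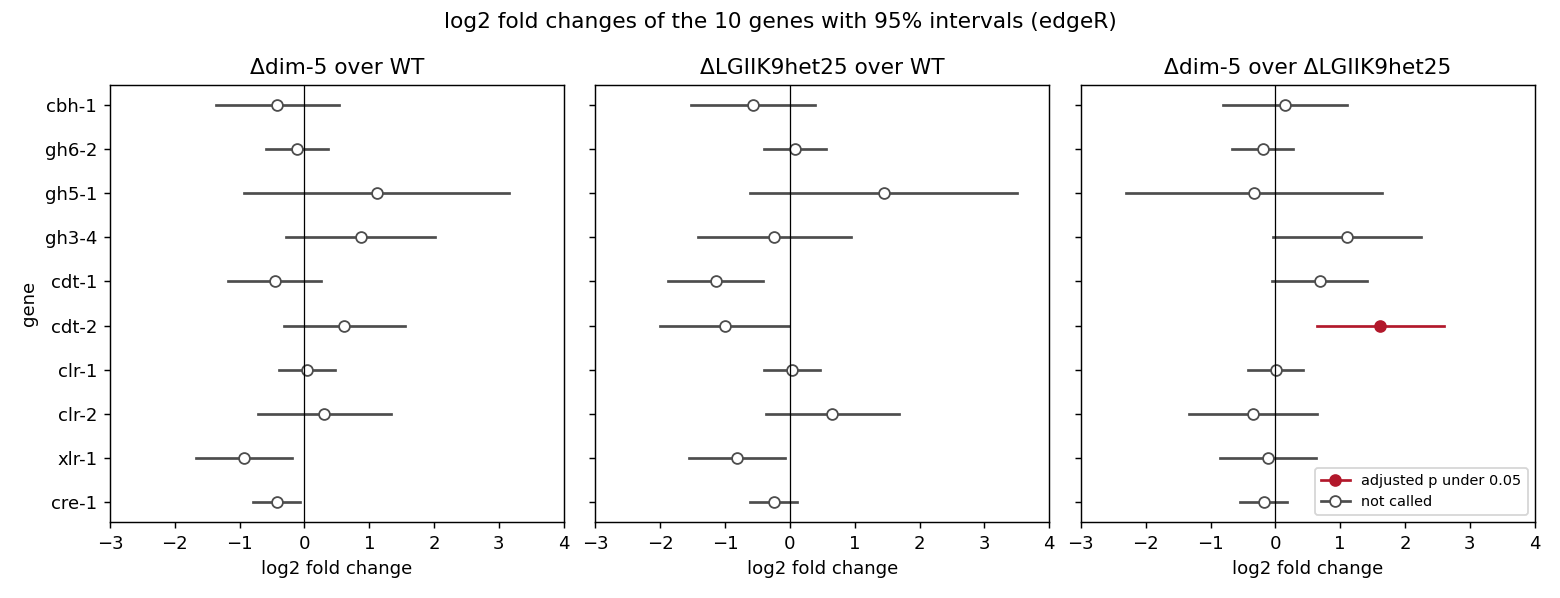
edgeR log2 fold changes of the 10 genes with 95% intervals, for Δdim-5 over WT, ΔLGIIK9het25 over WT and Δdim-5 over ΔLGIIK9het25. The filled point, cdt-2 between the mutants at 1.62, is the only one with an adjusted p under 0.05, and the gh5-1 intervals are the widest.

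Of the regulators, clr-1, the cellobiose-responsive activator, was at nearly the same level in the 3 strains. It had 25.5, 32.5, 37.9 and 36.1 CPM in Δdim-5, 27.2, 27.9, 44.7 and 31.5 CPM in ΔLGIIK9het25, and 27.6, 27.1, 38.5 and 35.3 CPM in WT. Replicate 3 was the highest library in each strain. The means were 33.0 ± 5.48 CPM in Δdim-5, 32.8 ± 8.16 CPM in ΔLGIIK9het25 and 32.1 ± 5.69 CPM in WT (SD, n = 4). The log2 fold change over WT was 0.04 in Δdim-5 (95% interval -0.39 to 0.47, edgeR adjusted p = 0.919) and 0.03 in ΔLGIIK9het25 (-0.40 to 0.46, adjusted p = 0.964), and its sign turned under other scalings in Δdim-5 and between the mutants.

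The gene clr-2, whose product acts downstream of CLR-1 as the main activator of cellulase genes, was low and uneven. It had 0.9, 4.26, 2.33 and 3.76 CPM in Δdim-5, 3.55, 4.08, 3.73 and 3.08 CPM in ΔLGIIK9het25, and 1.14, 3.08, 1.4 and 3.75 CPM in WT. The 4 ΔLGIIK9het25 libraries were close together, while replicates 1 and 3 were the low libraries in both Δdim-5 and WT. Against WT the log2 fold change was 0.31 in Δdim-5 (SE 0.473, edgeR adjusted p = 0.709) and 0.65 in ΔLGIIK9het25 (SE 0.475, adjusted p = 0.592).

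The gene xlr-1, for the activator of hemicellulase genes, was lower in Δdim-5 than in WT in every library and also missed the threshold. It had 3.3, 4.41, 5.56 and 4.29 CPM in Δdim-5, 5.64, 6.40, 3.0 and 4.14 CPM in ΔLGIIK9het25, and 6.23, 6.15, 14.5 and 6.40 CPM in WT. The highest Δdim-5 library, at 5.56 CPM, lay under the lowest WT library, at 6.15 CPM, as was the case for 9.43% of all tested genes, whereas ΔLGIIK9het25 overlapped WT through replicate 2. In edgeR the log2 fold change over WT was -0.93 in Δdim-5 (SE 0.343, 95% interval -1.67 to -0.19, adjusted p = 0.0847) and -0.81 in ΔLGIIK9het25 (SE 0.344, adjusted p = 0.26). DESeq2 called the Δdim-5 difference (adjusted p = 0.0465). Without WT replicate 3 it was -0.51 in Δdim-5 (adjusted p = 0.311) and -0.39 in ΔLGIIK9het25 (adjusted p = 0.612).

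The carbon catabolite repressor gene cre-1 had the most reads of the 10 genes. It had 309, 427, 288 and 334 CPM in Δdim-5, 413, 474, 327 and 324 CPM in ΔLGIIK9het25, and 468, 484, 477 and 398 CPM in WT. Of the Δdim-5 libraries, replicate 2 alone reached the WT range, as did replicates 1 and 2 of ΔLGIIK9het25. The means were 339 ± 61.2 CPM in Δdim-5, 385 ± 72.3 CPM in ΔLGIIK9het25 and 457 ± 39.5 CPM in WT (SD, n = 4). The log2 fold change over WT was -0.43 in Δdim-5 (SE 0.167, 95% interval -0.79 to -0.07, edgeR adjusted p = 0.102) and -0.25 in ΔLGIIK9het25 (SE 0.167, adjusted p = 0.549). Without Δdim-5 replicate 2 the Δdim-5 difference passed the threshold (-0.56, adjusted p = 0.0423).

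The level of cre-1 moved with the share of a library's reads that fell outside genes, which also differed between strains. Over the 12 libraries Pearson's r of the share with log2 CPM was 0.745 (permutation p = 3e-04, adjusted 0.003 over the 10 genes). Spearman's rho was 0.825 (permutation p = 0.00158, adjusted 0.0158). Without the libraries of the 2 highest shares, replicate 2 of WT and of ΔLGIIK9het25, r was 0.796. The permutations did not keep strains apart, although both quantities differ between strains, and each strain has 4 libraries, too few for a correlation within it. Within ΔLGIIK9het25 the order of the 4 cre-1 levels was that of the shares. In Δdim-5 it was not, since replicate 1 had the highest share and replicate 2 the highest cre-1 level, and in WT replicates 1 and 3 changed places. With the share as a covariate the Δdim-5 difference of cre-1 from WT was -0.24 (edgeR adjusted p = 0.419), beside -0.43 without it.

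For gh5-1 the relation ran the other way and did not pass the correction. Pearson's r was -0.506 (permutation p = 0.106, adjusted 0.353) and Spearman's rho -0.692 (p = 0.0153, adjusted 0.0675), and r was -0.825 without the same 2 libraries. With the share as a covariate, the gh5-1 log2 fold change over WT was -0.02 in Δdim-5 and 0.59 in ΔLGIIK9het25, so the sign of the Δdim-5 value turned. For xlr-1 rho was 0.671 (permutation p = 0.0202, adjusted 0.0675) and r was 0.387 (permutation p = 0.254, adjusted 0.635). For the other 7 genes no coefficient had an unadjusted permutation p under 0.05. The part of the share of reads outside genes in the strain differences was otherwise not tested.

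**Figure D3:**
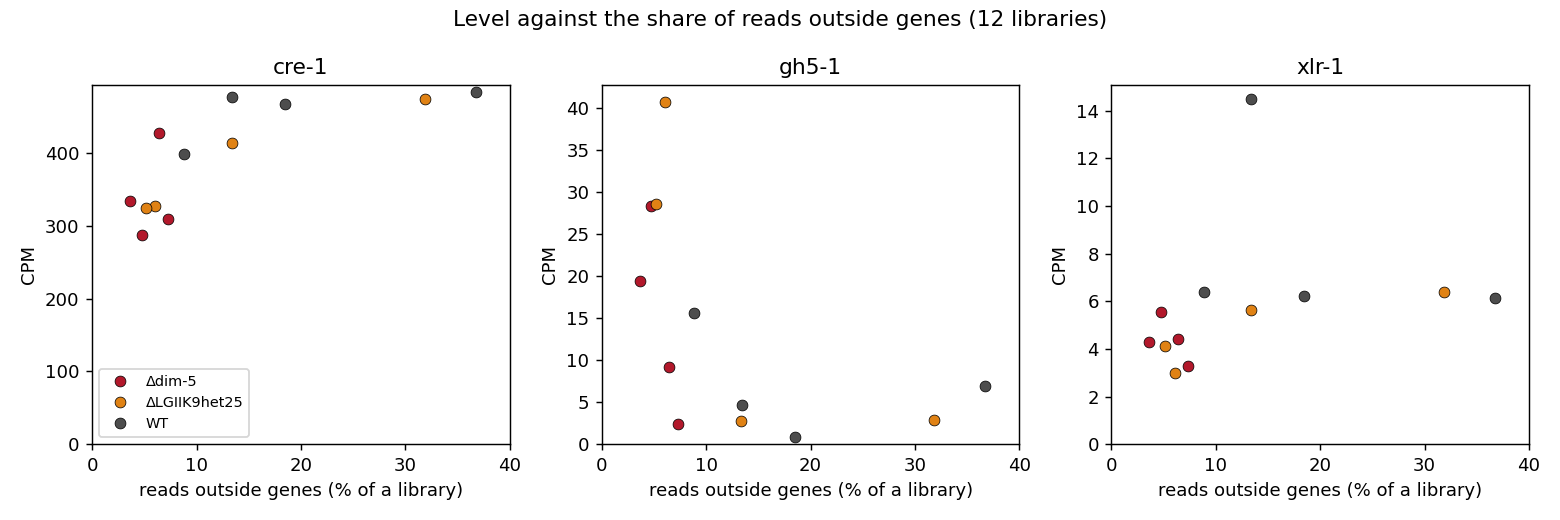
Level of cre-1, gh5-1 and xlr-1 in CPM (linear axes) against the percentage of a library's reads outside genes, 1 point per library, colored by strain. The cre-1 levels are higher where the share is higher (r = 0.745 over 12 libraries) and the gh5-1 levels lower (r = -0.506), with both coefficients taken on log2 CPM. The 4 Δdim-5 points all lie at shares of 3.62% to 7.29%.

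The 10 genes did not move as a unit from library to library. WT replicate 3 was the highest WT library for 5 of them, cbh-1, cdt-1, cdt-2, clr-1 and xlr-1, and the lowest for 0. ΔLGIIK9het25 replicate 2 was the highest of its strain for 7 of the 10 genes and ΔLGIIK9het25 replicate 4 the lowest for 5. In Δdim-5, replicates 2 and 3 were each the highest for 4 genes and replicate 1 the lowest for 5. WT replicate 3 also held the highest WT level of acu-6, the phosphoenolpyruvate carboxykinase gene of growth on acetate, at 1273 CPM. The other WT libraries had 123 to 371 CPM. Both mutants had a single high library too, with 439 CPM in Δdim-5 replicate 2, against 37.8 to 99.2 CPM in its other libraries. ΔLGIIK9het25 replicate 1 had 169 CPM of acu-6, against 51.0 to 61.7 CPM. That library was the highest of its strain for 0 of the 10 genes, while replicate 2, the highest for 7, had 61.7 CPM. The gene acu-6 was singled out after its values were seen. The part of these library differences in the comparisons with WT was not tested beyond leaving out each library. The median coefficient of variation of the 10 genes was 29.5% in Δdim-5, 32.0% in ΔLGIIK9het25 and 45.7% in WT, beside 24.7%, 21.7% and 23.4% for all genes averaging 1 to 50 CPM. The 2 sets were not matched on level. The gene cre-1 lies above 50 CPM, and cdt-2 had as few as 5 counts in a library, where counting error adds to the spread.

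**Figure D4:**
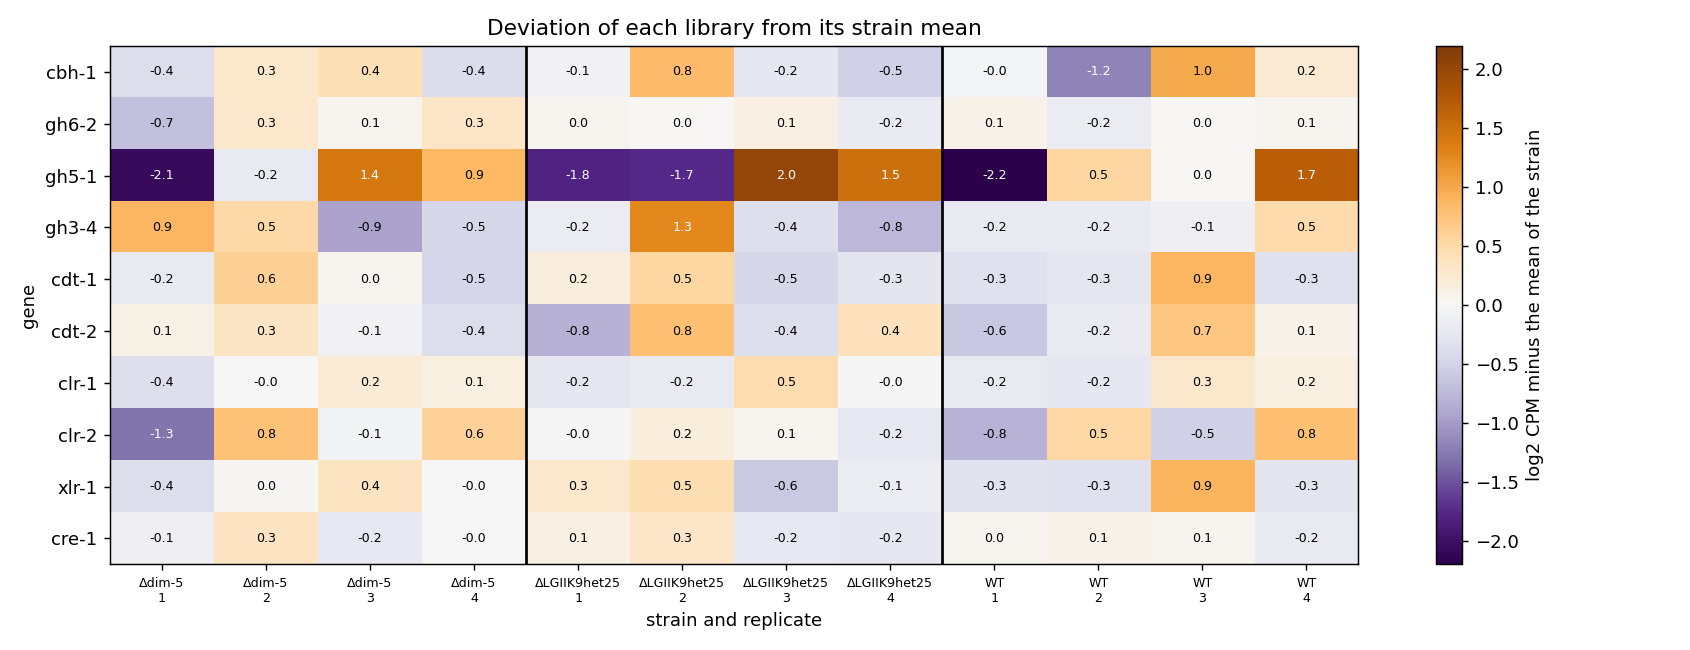
Log2 CPM of each gene in each library minus the mean of its strain, with replicates 1 to 4 of Δdim-5, ΔLGIIK9het25 and WT in columns. The gh5-1 row holds the strongest deviations in each strain, and WT replicate 3 is high for cbh-1, cdt-1, cdt-2 and xlr-1.

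The remaining genes of plant cell wall breakdown were read from lists of genes known in N. crassa, which were also chosen with earlier results of these data known. Of 39 other genes for cellulases, lytic polysaccharide monooxygenases, beta-glucosidases and hemicellulases, 36 could be tested. In Δdim-5 against WT, 5 were called higher and 5 lower, beside 765 and 640 of the 8496 tested genes. In ΔLGIIK9het25 against WT, 3 were called higher and 1 lower, beside 262 and 105 of all tested genes. Between the mutants, 5 were higher and 4 lower in Δdim-5, beside 750 and 673 of all tested genes. These all-gene splits depend on the scaling. With library totals alone in place of TMM they were 652 higher and 756 lower for Δdim-5 over WT, and 586 higher and 788 lower between the mutants. With upper-quartile factors they were 826 and 565 for Δdim-5 over WT.

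The enzyme lists are read beside the 16.5% of all tested genes called in Δdim-5, the 4.32% in ΔLGIIK9het25 and the 16.7% between the mutants. Of the 6 other cellulase genes, 2 were called higher and 0 lower in Δdim-5 than in WT, namely the glycoside hydrolase genes gh7-1 and gh7-2. The gene gh7-1 had 5.7, 7.42, 5.77 and 6.75 CPM in Δdim-5, 1.69, 2.76, 1.16 and 0.903 CPM in ΔLGIIK9het25, and 2.63, 1.90, 2.5 and 1.33 CPM in WT. Each Δdim-5 library was above every ΔLGIIK9het25 library, as was the case for 10.5% of all tested genes. Each was also above every WT library, a share not computed over all genes. In edgeR gh7-1 was called over WT (log2 fold change 1.60, adjusted p = 0.00792) and over ΔLGIIK9het25 (2.00, adjusted p = 0.00198). For gh7-2 the mutants lay on either side of WT, at 9.30 ± 1.57 CPM in Δdim-5, 2.21 ± 0.684 CPM in ΔLGIIK9het25 and 4.90 ± 1.07 CPM in WT (SD, n = 4). It was called between the mutants (log2 fold change 2.08, adjusted p = 0.00028), also without any 1 library. Its calls over WT, 0.93 in Δdim-5 (adjusted p = 0.0321) and -1.15 in ΔLGIIK9het25 (adjusted p = 0.0365), were less firm. The first was lost without replicate 1 or 3 of WT or replicate 1, 2 or 3 of Δdim-5 (adjusted p = 0.0596 to 0.085). The second was lost without replicate 2, 3 or 4 of WT, 1, 3 or 4 of ΔLGIIK9het25, or 2 or 3 of Δdim-5 (adjusted p = 0.0506 to 0.116). The gene gh6-3 went the other way between the mutants, lower in Δdim-5 (-0.78, edgeR adjusted p = 0.0485), a call lost under 15 of 23 alternatives. The median log2 fold change of these 6 genes was 0.79 for Δdim-5 over WT, -0.42 for ΔLGIIK9het25 over WT and 1.36 between the mutants. Over all tested genes the same medians were 0.01, -0.01 and 0.02.

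Of the 13 tested genes for lytic polysaccharide monooxygenases, which cut cellulose by oxidation, 1 was called higher and 2 lower in Δdim-5 than in WT, and 1 higher and 0 lower in ΔLGIIK9het25. The gene gh61-6 fell to 0.2, 0.294, 0.636 and 0.202 CPM in Δdim-5, against 4.83, 15.2, 9.21 and 10.0 CPM in WT (log2 fold change -4.80, SE 0.458, edgeR adjusted p = 1.27e-05). It had 15.5, 12.8, 8.81 and 10.2 CPM in ΔLGIIK9het25, so the drop against that strain was -5.07 (adjusted p = 8.44e-06). NCU07898, which the gene table gives no symbol, averaged 9.45 ± 3.49 CPM in Δdim-5, 22.9 ± 13.9 CPM in ΔLGIIK9het25 and 1.72 ± 1.25 CPM in WT. Its log2 fold change over WT was 3.75 in ΔLGIIK9het25 (adjusted p = 0.00623, but 0.0711 in limma-voom) and 2.47 in Δdim-5 (adjusted p = 0.0215), where the call was lost without WT replicate 3 (2.12, adjusted p = 0.0553) or WT replicate 4 (2.26, adjusted p = 0.0639). The Δdim-5 call was also lost in limma-voom (2.66, adjusted p = 0.119) and with the share of reads outside genes in the model (1.96, adjusted p = 0.166).

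Of the 6 other beta-glucosidase genes, gh3-1 was called higher and gh3-2 and gh3-5 lower in Δdim-5 than in WT, and 0 were called in ΔLGIIK9het25. gh3-1 averaged 63.9 ± 15.8 CPM in Δdim-5, 34.5 ± 3.33 CPM in ΔLGIIK9het25 and 25.6 ± 0.701 CPM in WT (log2 fold change of Δdim-5 over WT 1.32, edgeR adjusted p = 0.000184). Of 11 hemicellulase genes tested, the xylanase gene gh11-2 was called higher in Δdim-5 than in WT (5.94 ± 1.60 against 0.552 ± 0.258 CPM, log2 fold change 3.34, adjusted p = 5.21e-05). NCU00972 was called lower in Δdim-5, at 9.36 ± 2.77 against 18.3 ± 4.19 CPM in WT (-0.98, adjusted p = 0.00975). Both were called higher in ΔLGIIK9het25 than in WT, with log2 fold changes of 1.61 for gh11-2 and 0.98 for NCU00972, but these calls depended on single libraries. For gh11-2 the call was lost without replicate 2 or 4 of WT or 1, 3 or 4 of ΔLGIIK9het25 (adjusted p = 0.0606 to 0.0768), and for NCU00972 without replicate 2 or 4 of WT or 1 or 3 of ΔLGIIK9het25 (adjusted p = 0.0544 to 0.0722).

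The lists beyond the enzymes are read beside the 16.5% of all tested genes called in Δdim-5 and the 4.32% called in ΔLGIIK9het25. Of 6 other sugar transporter genes, 1 was called lower in Δdim-5 than in WT, NCU00821, with 34.5 ± 5.71 against 141 ± 92.1 CPM (log2 fold change -2.03, edgeR adjusted p = 0.00385), and 0 in ΔLGIIK9het25. Of 12 other regulator genes, 1 was called lower in Δdim-5, vib-1, which is needed for the cellulase response, at 248 ± 54.9 against 366 ± 32.8 CPM in WT (-0.56, adjusted p = 0.0302). The call was lost without replicate 2, 3 or 4 of WT or replicate 1 or 2 of Δdim-5 (adjusted p = 0.0514 to 0.0764). In ΔLGIIK9het25, 1 of the 12 was called lower, NCU05414 (-1.83, adjusted p = 0.0343), and the call was lost without replicate 3 or 4 of WT or 2, 3 or 4 of ΔLGIIK9het25 (adjusted p = 0.0691 to 0.113). Of 8 genes that mark the carbon state of the hypha, such as those of glyoxylate cycle, gluconeogenesis and fermentation, 0 were called in either mutant against WT. At an unadjusted p under 0.05 there were 3 of the 8 in each mutant, beside 30.1% of all tested genes in Δdim-5 and 15.8% in ΔLGIIK9het25. Between the mutants, where 16.7% of all tested genes were called, 2 of the 8 were called, both lower in Δdim-5. For inv, the invertase gene, the means were 23.5 ± 8.64 CPM in Δdim-5 and 71.7 ± 27.9 CPM in ΔLGIIK9het25 (-1.61, edgeR adjusted p = 0.00794). The strains overlapped, since ΔLGIIK9het25 replicate 2, at 30.1 CPM, lay under Δdim-5 replicate 2, at 34.5 CPM.

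**Figure D5:**
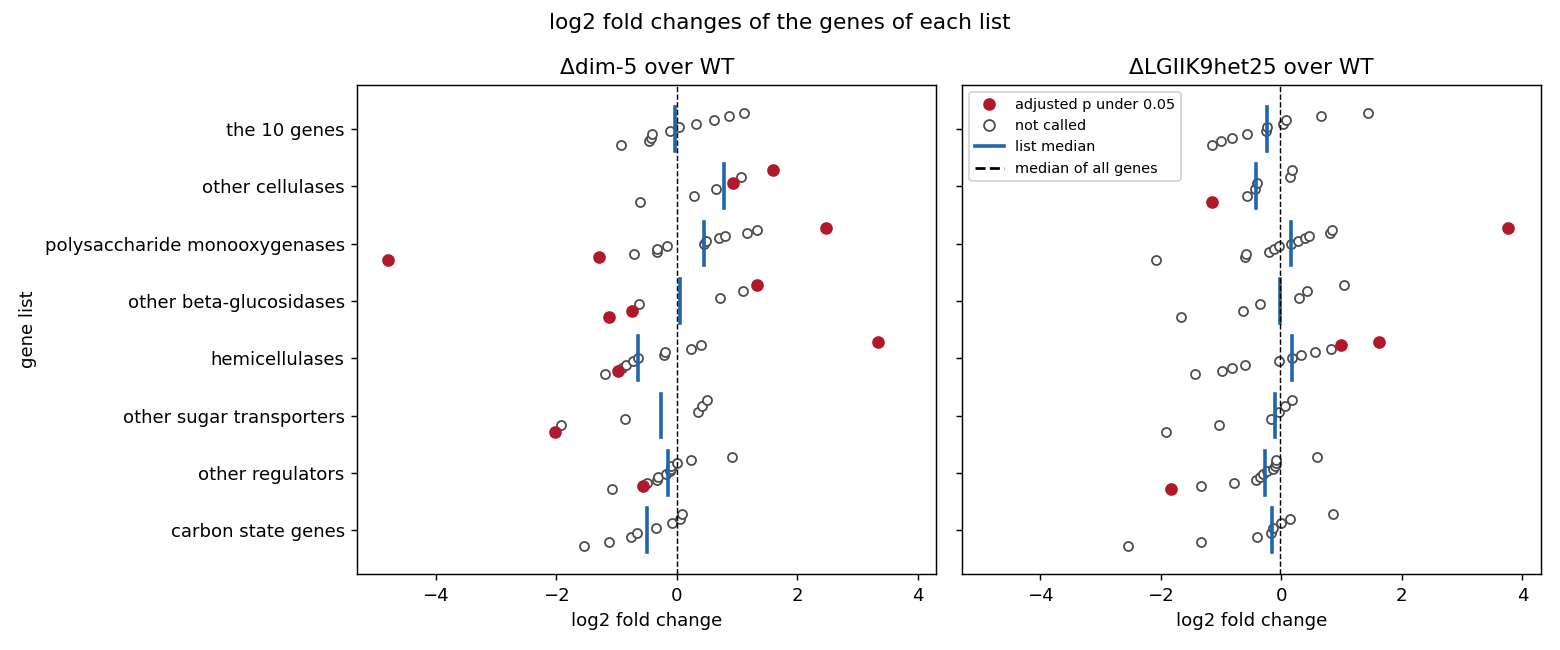
edgeR log2 fold changes of the tested genes of each list, for Δdim-5 over WT and ΔLGIIK9het25 over WT, with the list median as a blue bar and called genes filled. None of the 10 genes is filled in either panel, while gh61-6 at -4.80 and gh11-2 at 3.34 in Δdim-5 and NCU07898 at 3.75 in ΔLGIIK9het25 lie farthest out.

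The labels do not say whether the 4 libraries of a strain came from separate cultures, so p-values measure the spread between these libraries, which may be technical. In RNA from whole mycelium, fewer hyphae that express a gene and less of its RNA per hypha cannot be told apart. Reads were counted without regard to strand, so reads of a gene and of any antisense partner cannot be separated.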

How the data were processed

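Polyadenylated RNA from mycelium of 3 strains was sequenced as single reads of 118 nt, per the labels. Each of the 12 libraries has a table of raw gene counts deposited by the authors, per the labels. The submitters' processing notes name HISAT2, HTSeq and DESeq2. The build, annotation and tool versions were not given in the sources used here. The names of the deposited count tables say that strand was not used. Each table lists 9730 genes, and 5 entries naming no gene were left out. Of the identifiers, 9729 were found in RefSeq's gene table for assembly NC12, used for symbols and neighbours alone.

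From the deposited counts, genes were kept by filterByExpr (8496) and tested with edgeR's quasi-likelihood method (edgeR 4.0.16, R 4.3.3) after TMM scaling in 1 fit of all 12 libraries (9 residual degrees of freedom), two-sided, with Benjamini-Hochberg adjustment over all tested genes. CPM uses TMM-scaled totals, and likeness and the correlations with the outside-gene read share use log2 CPM with a prior count of 2. Intervals on single values are exact 95% intervals and cover counting error only. Correlations used 100000 permutations. Alternatives were RLE, upper-quartile and no scaling factors, DESeq2 1.42.0, limma-voom (limma 3.58.1), no filter, a filter at 5 CPM on average, a fit of 2 strains only, a threshold of 0.01, the replicate number as a block, the outside-gene read share as covariate, and leaving out each library. The test was tried on simulated counts.

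The 10 genes and the lists were chosen with earlier results of these data known. Replicates carry the numbers of the sample titles. Besides the 10 genes, the text names some of the called genes of the lists, some of their most abundant genes, dim-5 and the 3 genes most like a called member. Other called genes of the lists, such as NCU02344, gh61-11 and acu-5, were counted but not described.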

Additional observations from a re-analysis of the deposited data

Results flagged for a closer look

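In 87 groups of 4 libraries, 29 genes in 3 strains, 5 groups held a library set far from the other 3 of its strain on the log2 scale, where chance gives about 1 in 20 groups, or 4.35. Of the 10 genes, gh3-4 was at 2.66 CPM in WT replicate 4 and at 1.58 to 1.69 CPM in the other WT libraries. WT replicate 3 had 34.5 CPM of cdt-1, against 15.0 to 15.7 CPM in the other WT libraries, and 14.5 CPM of xlr-1, against 6.15 to 6.40 CPM. Of the list genes, NCU02343 was at 71.4 CPM in ΔLGIIK9het25 replicate 2 and at 22.4 to 25.8 CPM in the other ΔLGIIK9het25 libraries. In the same library the invertase gene inv was at 30.1 CPM, against 81.1 to 89.9 CPM in the other ΔLGIIK9het25 libraries.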

How the results depend on the processing

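Of the values of the 10 genes under the alternatives, 637 kept their direction and side of the threshold, 32 changed sign, 4 gained a call and 5 lost one. With 1 library left out, genes called numbered 1061 to 1501 for Δdim-5 over WT, 216 to 402 for ΔLGIIK9het25 over WT and 939 to 1452 between the mutants, and called members 0 to 1, 0 to 0 and 0 to 2. DESeq2 called 617 genes for ΔLGIIK9het25 over WT, against 367 in edgeR, and 1 of the 10 genes over WT in each mutant. A filter at a mean of 5 CPM gave 196 genes for ΔLGIIK9het25 over WT and 0 of the 10 genes between the mutants. It left cdt-2 untested, and also cbh-1, gh3-4 and clr-2. An adjusted p under 0.01 left 687 genes for Δdim-5 over WT, 154 for ΔLGIIK9het25 over WT, and 637 genes and 0 of the 10 between the mutants.

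Signs changed for values near 0 or with wide spread, and the cause was not tested. For clr-1, the log2 fold change between the mutants was -0.00393 with RLE factors, -0.0706 with library totals, -0.00183 with upper-quartile factors, -0.00388 in DESeq2, -0.00332 with no filter and -0.131 with the outside-gene read share as covariate. For Δdim-5 over WT, clr-1 was -0.0342 with library totals and -0.189 with the covariate, and for ΔLGIIK9het25 over WT -0.0582 with the covariate. gh5-1 was 0.145 between the mutants in limma-voom and -0.0226 for Δdim-5 over WT with the covariate. With single libraries left out, Δdim-5 over WT ran from -0.685 to 0.00621 for cbh-1, -0.221 to 0.0635 for gh6-2 and -0.0348 to 0.142 for clr-1. ΔLGIIK9het25 over WT ran from -0.903 to 0.0017 for gh3-4 and -0.131 to 0.134 for clr-1. Between the mutants the ranges were -0.0318 to 0.514 for cbh-1, -0.864 to 0.346 for gh5-1, -0.0806 to 0.162 for clr-1 and -0.321 to 0.0509 for xlr-1.

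Replicate numbers here are those of the sample titles, and most count tables carry another number in their names. The title numbers did not pair the libraries: 2 of 12 same-numbered pairs had deviations correlated over 0.1 (r -0.201 to 0.461), and 3 of 12 libraries correlated best with one of their own number. With the replicate number as a block, 1504, 371 and 1467 genes were called for Δdim-5 over WT, ΔLGIIK9het25 over WT and between the mutants, and 0, 0 and 1 of the 10 genes. Counts of 5 to 60 per library limit cdt-2 and gh3-4, and counts of 9 to 93 limit clr-2.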

Other observations

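Of the lists' genes with the most reads, the lytic polysaccharide monooxygenase gene gh61-9 averaged 768 ± 137 CPM in Δdim-5, 826 ± 264 CPM in ΔLGIIK9het25 and 1257 ± 294 CPM in WT (SD, n = 4), and was called in no comparison. The xylanase gene gh10-3 averaged 45.6 ± 20.5 CPM in Δdim-5, 38.7 ± 5.23 CPM in ΔLGIIK9het25 and 76.3 ± 47.5 CPM in WT.

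Of the 20 genes next to the 10 genes on either side in the gene table, 13 could be tested. Of these, 3 were called in Δdim-5 against WT, where 16.5% of all tested genes were called, and 0 in ΔLGIIK9het25, where 4.32% were. NCU09681, beside gh6-2, fell by 3.57 on the log2 scale in Δdim-5 against WT (edgeR adjusted p = 1.09e-06), whereas gh6-2 itself was at -0.11. NCU04951, beside gh3-4, was at -1.11 (adjusted p = 0.00633) and NCU07703, beside clr-1, at 1.18 (adjusted p = 0.0305). Between the mutants 3 of the 13 were called, where 16.7% of all tested genes were. These were NCU09681 (-3.46, edgeR adjusted p = 1.25e-06), NCU07703 (1.59, adjusted p = 0.00659) and NCU04953, on the other side of gh3-4 (2.15, adjusted p = 0.000803).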
